A study of Noccaea goesingensis with 12 samples.

Results

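The genes described here are those encoded in the mitochondrial and plastid genomes, taken as every listed gene whose locus lies on the mitochondrial (ATMG identifiers) or the plastid (ATCG identifiers) chromosome of *A. thaliana*. They were 16 of the 5273 genes in the deposited ecotype comparisons, 11 mitochondrial and 5 plastid. RNA was sequenced from roots of *Noccaea goesingensis*, a Ni-hyperaccumulating relative of *A. thaliana*, from a non-metallicolous population (NTM, TF in the labels) and a population of a serpentinite site (TM, TR in the labels). Both were grown without Ni (NTM control, 3 libraries, and TM control, 4 libraries) or with Ni for 3 weeks (NTM Ni, 3 libraries, and TM Ni, 2 libraries). Roots of 5 plants were pooled in each library, and the labels name no allele or transgene. Library numbers follow the labels, which differ from the equal numbers per group in the methods of the study. The tables hold 1 value for each group, so no value below has a replicate error, and no difference was tested. Each ecotype is 1 population, so ecotype and population of origin cannot be told apart.

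Plant mitochondria keep a small genome that encodes some subunits of the respiratory chain and the ATP synthase, ribosomal components, proteins of cytochrome *c* maturation and many open reading frames without known function. The plastid genome encodes core parts of the photosynthetic apparatus, a plastid RNA polymerase, ribosomal components and a few other enzymes and assembly proteins, and root plastids are mostly not photosynthetic. Most partner subunits of both organelles are encoded in the nucleus and imported. In plant organelles a poly(A) tail marks RNA for decay, and the libraries here were made from poly(A)-selected RNA, so the values need not follow the total organelle RNA. Fewer organelles or genome copies in a root and less RNA for each copy cannot be told apart either. The sources used here pair none of the 16 identifiers with a gene name, so they are given by identifier and locus, and neither grouped by protein complex nor assigned a role. Positions are those of the deposited tables, with TAIR10 as the build named in the submitters' processing notes. They are *A. thaliana* positions to which reads of *N. goesingensis* were aligned. How sequence differences between both species affect the values was not tested.

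The deposited values are called FPKM here, fragments per kilobase of transcript and 1000000 mapped fragments, as in the methods of the study, although the single-group files are headed TPM and the unit was not settled. The tables list a gene only if the authors' unadjusted *p*-value for TM against NTM was under 0.05, and hold 4460 genes for roots without Ni and 1944 for roots with Ni. No value is given for a gene that a table does not list. Every member was therefore selected for differing in the comparison in which it appears, and the size and direction of its ratio are a description. The depth of each value is not in these tables, and in the read numbers of the study 1 NTM Ni library was far shallower than every other library. *IRT1* (AT4G19690), an iron transporter gene of the root epidermis in *A. thaliana*, was present in both Ni groups, at 38.1 FPKM in NTM and 346.4 FPKM in TM. It was not listed without Ni, and the root label of the control groups was not checked.

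Without Ni, 10 organelle genes were listed, 6 mitochondrial and 4 plastid. All 4 plastid genes had lower values in the TM ecotype, while 4 of the 6 mitochondrial genes had higher values in TM and 2 had lower values. Of all genes listed without Ni, 44.5% had higher and 55.5% lower values in TM. With Ni, 7 organelle genes were listed, 6 mitochondrial and 1 plastid. Of the mitochondrial genes 5 had lower values in TM and 1 had a higher value, and the plastid gene had a higher value in TM, beside 46.2% of all genes listed with Ni with higher and 53.8% with lower values in TM. ATMG00660 was the only organelle gene in both tables, beside 1131 such genes among all genes.

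**Figure D1:**
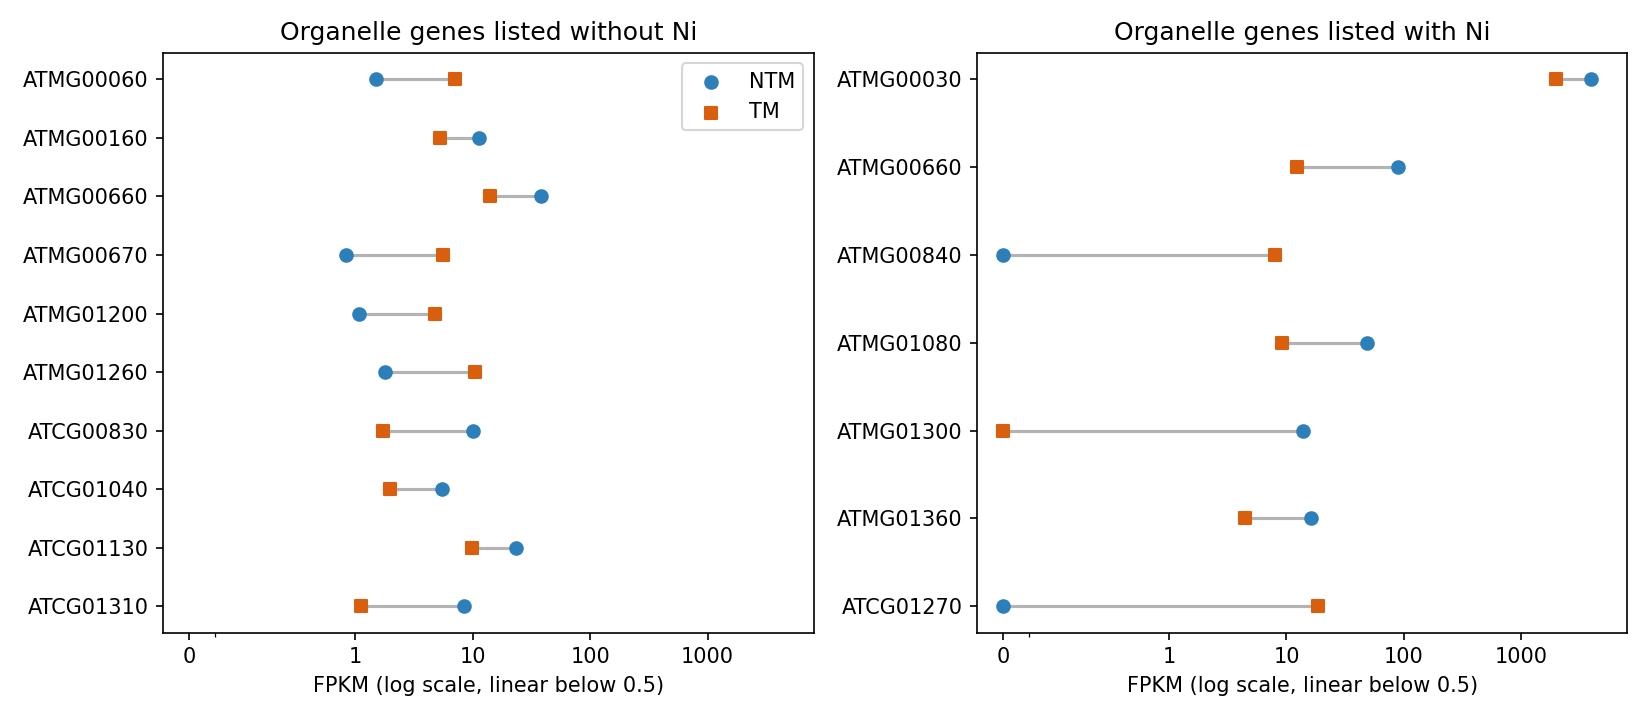
FPKM (log scale, linear below 0.5) of each listed organelle gene in the NTM ecotype (circles) and the TM ecotype (squares), without Ni (left) and with Ni (right), 1 value per group and no error. The 4 plastid genes without Ni have the NTM value on the right, and 3 genes with Ni have 1 value at 0.

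The 4 plastid genes without Ni were led by ATCG01130, a locus of 5361 bp (plastid positions 123884 to 129244). It stood at 23.2 FPKM in NTM control and 9.80 FPKM in TM control, with a log2 ratio (TM over NTM throughout) of -1.23. It had the highest values of the 4 in both ecotypes and the ratio nearest to 0. ATCG01040 (positions 114461 to 115447) stood at 5.49 FPKM in NTM and 1.96 FPKM in TM, a log2 ratio of -1.44.

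The other two plastid genes, ATCG00830 (positions 84337 to 85843) and ATCG01310 (positions 152806 to 154312), had the same locus length of 1507 bp, and were the only pair of equal length among the 65 pairs of members on the same organelle chromosome. ATCG00830 stood at 10.1 FPKM in NTM and 1.71 FPKM in TM, a log2 ratio of -2.49. ATCG01310 stood at 8.50 FPKM in NTM and 1.12 FPKM in TM, a log2 ratio of -2.82. These were the lowest ratios of the organelle genes without Ni, and both loci had similar levels within each ecotype. The plastid genome of *A. thaliana* carries a large inverted repeat in which genes are present as identical copies, and reads of such copies cannot be assigned to 1 locus. Whether these loci are such copies was not checked, because no sequence was used. Taken as a single unit, their summed values were 18.6 FPKM in NTM and 2.83 FPKM in TM, a log2 ratio of -2.67, and the count of plastid genes with lower values in TM would then be 1 smaller.

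Among the mitochondrial genes without Ni, those with higher values in TM had low values in NTM. ATMG01260 (mitochondrial positions 312545 to 313162) stood at 1.80 FPKM in NTM and 10.5 FPKM in TM, a log2 ratio of 2.48. ATMG00060 (positions 20573 to 22086) stood at 1.51 and 7.04 FPKM, a log2 ratio of 2.15. ATMG00670 (positions 191055 to 191882) stood at 0.831 FPKM in NTM and 5.60 FPKM in TM, with a log2 ratio of 2.61. This was the highest of the 4 ratios with 0.1 FPKM added, but with 1 FPKM added it was 1.85 and that of ATMG01260 was the highest, at 2.04. ATMG01200 (positions 303836 to 304720) stood at 1.07 FPKM in NTM and 4.81 FPKM in TM, a log2 ratio of 2.07.

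The mitochondrial genes with lower values in TM without Ni had higher NTM values than the genes with higher values in TM. ATMG00660 (positions 190104 to 190553) stood at 37.8 FPKM in NTM and 13.9 FPKM in TM, the highest values of all organelle genes without Ni, with a log2 ratio of -1.43. ATMG00160 (positions 40502 to 42628) stood at 11.3 FPKM in NTM and 5.29 FPKM in TM, a log2 ratio of -1.08, and its TM value lay within the range of the other group. In the *A. thaliana* reference ATMG00660 and ATMG00670 lie 501 bp apart, the nearest pair among members on the same chromosome, where the next nearest are 7651 bp apart. Whether they are neighbours in *N. goesingensis* was not checked. Their ratios had opposite signs, since ATMG00660 was higher in NTM and ATMG00670 higher in TM.

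All 10 organelle genes without Ni passed a 2-fold ratio in either direction (1 on the log2 scale, with 0.1 FPKM added to each value), where 60.2% of all listed genes did. The organelle genes past it were 4 with higher values in TM, against 27.4% of all listed genes, and 6 with lower values in TM, against 32.8%. With ratios centred on the median of all listed genes, 4 with higher and 2 with lower values in TM passed it, where the shares of all listed genes became 44.5% and 11.4%. The 44.5% is every listed gene with a higher value in TM, so centring put all of these past the ratio. As genes were listed for differing, their median need not measure an offset between the groups. Low level goes along with a large ratio in these tables. The mean FPKM of both ecotypes was under 10 for 8 of the 10 organelle genes, and among all 1436 listed genes at that level 83.5% passed the 2-fold ratio, compared with 49.2% of the genes at or above it. The median log2 ratio was 2.11 for the 6 mitochondrial genes and -1.96 for the 4 plastid genes, beside -0.71 for all listed genes. The plastid median and the 6 with lower values count both loci of the equal-length pair. As a single unit that pair had a log2 ratio of -2.67, beside -1.23 and -1.44 for the other plastid genes. On the 5 nuclear chromosomes the medians without Ni lay between -0.76 and -0.66.

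**Figure D2:**
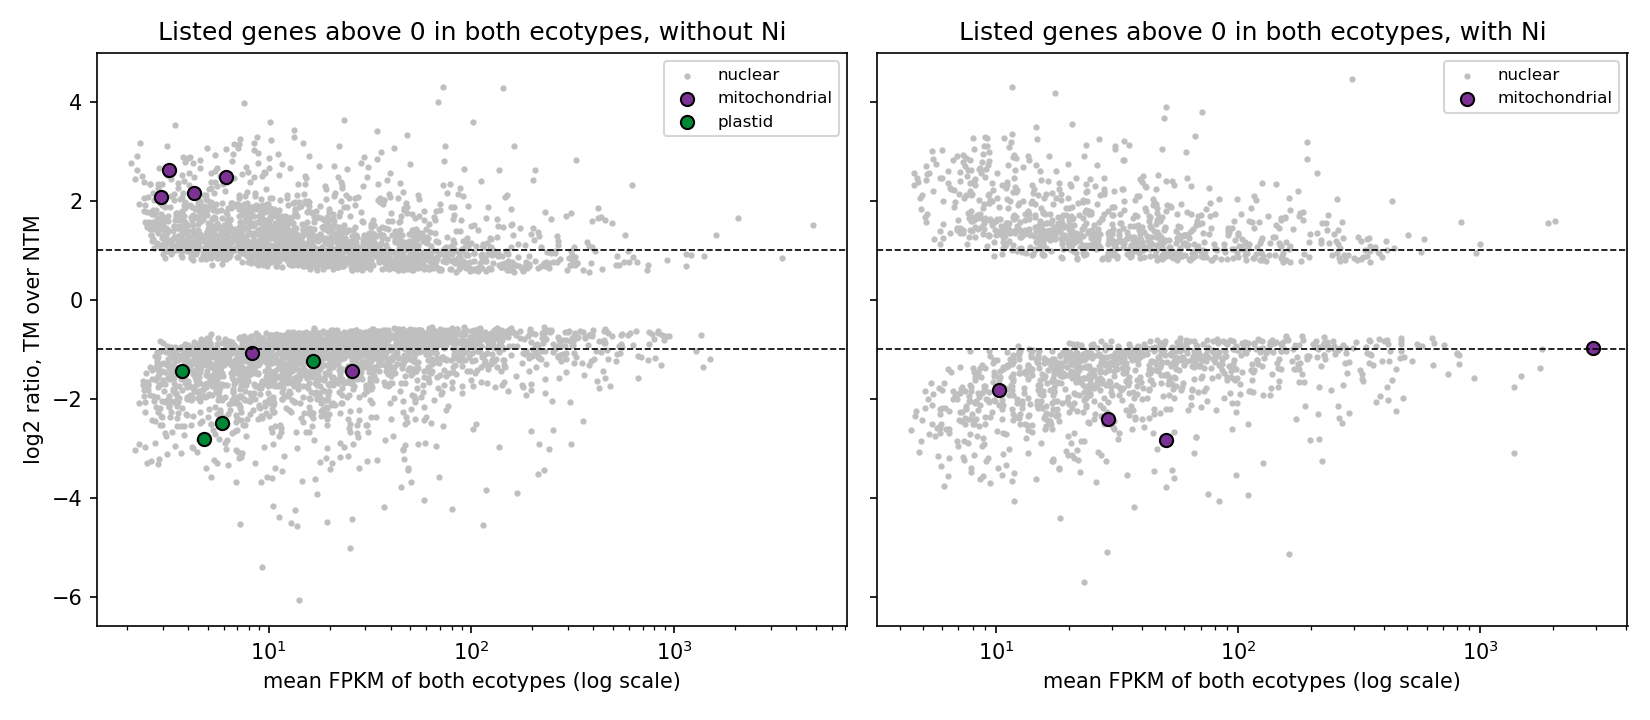
Log2 ratio of TM over NTM (with 0.1 FPKM added to each value) against the mean FPKM of both ecotypes (log scale), for listed genes above 0 in both ecotypes, without Ni (left) and with Ni (right). Grey points are nuclear genes, coloured points organelle genes, and dashed lines a 2-fold ratio, and ATMG00030 lies at the far right of the panel with Ni.

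With Ni, 4 mitochondrial genes were above 0 in both ecotypes, and all 4 had the higher value in NTM. ATMG00030 (positions 11918 to 12241) stood at 3881 FPKM in NTM and 1984 FPKM in TM, a log2 ratio of -0.97. Its mean over both ecotypes ranked 1 of the 1944 genes listed with Ni. Its locus is 324 bp long, and multiplied by locus length in kb its values came to 1258 and 642.9 fragments per 1000000, which ranked 30 of 1944. How the deposited values treat loci little longer than the sequenced inserts was not checked, so both ranks are uncertain. ATMG00030 was the only organelle gene below a 2-fold ratio, and it was not listed without Ni.

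ATMG01080 (positions 278649 to 279152) stood at 48.9 FPKM in NTM Ni and 9.18 FPKM in TM Ni, a log2 ratio of -2.40. ATMG01360 (positions 349830 to 351413) stood at 16.1 FPKM in NTM Ni and 4.47 FPKM in TM Ni, a log2 ratio of -1.82. For ATMG00660 the values were 88.2 FPKM in NTM Ni and 12.3 FPKM in TM Ni, a log2 ratio of -2.83. This was the lowest ratio among the organelle genes above 0 in both ecotypes, and 190 of the 1944 listed genes had one farther from 0.

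The other three genes listed with Ni stood at 0 in 1 ecotype, so no ratio is given for them. ATCG01270 (plastid positions 144921 to 145154) was listed at 0 in NTM Ni and at 18.6 FPKM in TM Ni. ATMG00840 (mitochondrial positions 234538 to 234903) was listed at 0 in NTM Ni and at 8.06 FPKM in TM Ni. ATMG01300 (positions 325300 to 325710) was at 13.8 FPKM in NTM Ni and listed at 0 in TM Ni. Their loci are 234, 366 and 411 bp long. Of all 71 listed loci under 500 bp, 66.2% were at 0 in 1 ecotype with Ni, against 1.44% of the longer loci, and 3 of the 5 organelle loci under 500 bp were. Whether these zeros are failed estimates of short loci or missing transcripts was not tested. Whether ATCG01270 has an identical copy in the plastid inverted repeat, to which its reads could be assigned, was not checked either. Without Ni no organelle gene was listed at 0, beside 53 of the 4460 genes.

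Of the 7 organelle genes with Ni, 6 passed the 2-fold ratio, where 86.1% of all listed genes did. In the direction of higher values in TM there were 2, both of them at 0 in NTM, against 39.4% of all listed genes, and in the direction of lower values in TM there were 4, one at 0 in TM, against 46.8%. Without the genes at 0, 3 genes remained past the ratio, all with lower values in TM. The median log2 ratio of the 4 mitochondrial genes above 0 in both ecotypes was -2.11, beside -0.91 for all listed genes above 0 in both.

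ATMG00660 could be followed over all 4 groups. Its NTM values were 37.8 FPKM in control roots and 88.2 FPKM in roots with Ni, and its TM values were 13.9 and 12.3 FPKM. Whether the values without and with Ni were normalized together was not settled, although the methods describe scaling over all libraries. Set against control, the Ni values gave log2 ratios of 1.22 in NTM and -0.18 in TM. A higher NTM ratio of Ni over control was found for 13 of the 1131 genes with 4 values. All of these 1131 genes were listed for an ecotype difference in both states, so they do not stand for all genes. The central 90% of them had NTM ratios between -1.08 and 0.78. In TM the ratio of ATMG00660 lay inside the same central range of genes, from -0.69 to 0.68. Its value was lower in TM than in NTM in both states, and the ecotypes stood farther apart with Ni. The ATMG00660 locus is 450 bp long, and many listed loci under 500 bp were at 0 in 1 ecotype with Ni. The far shallower library belongs to the NTM Ni group. The part of locus length or of this library in the NTM Ni value was not tested.

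**Figure D3:**
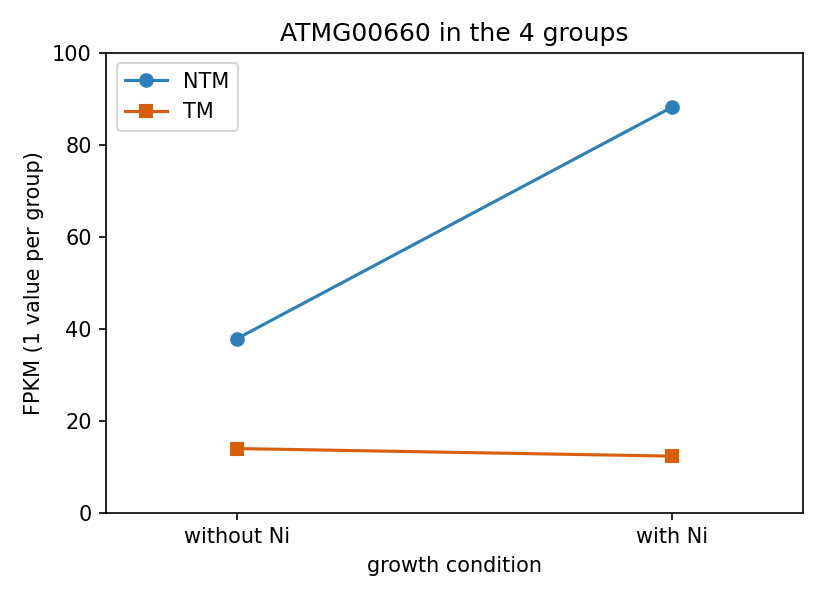
FPKM of ATMG00660 without and with Ni in the NTM ecotype (circles) and the TM ecotype (squares), 1 value per group and no error. The NTM value goes from 37.8 to 88.2 FPKM, and the TM value from 13.9 to 12.3 FPKM.

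Length-multiplied values of most organelle genes lay below those of the typical listed gene. FPKM multiplied by locus length gave a median of 9.12 fragments per 1000000 in NTM and 5.45 in TM over the 10 genes without Ni, compared with 33.5 and 30.6 over all listed genes. For the 4 mitochondrial genes with higher values in TM it was 0.688 to 2.29 fragments per 1000000 in NTM and 4.26 to 10.7 in TM. With Ni the medians over the 7 organelle genes were 24.7 in NTM and 4.63 in TM, beside 54.3 and 52.2 over all listed genes. Locus length includes any introns, the unit was not settled, and the treatment of loci little longer than the sequenced inserts was not checked. These numbers are therefore rough, and without the depth they do not give the number of fragments behind a value.

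The nuclear chromosome 2 of *A. thaliana* carries a long copy of the mitochondrial genome, and reads of near-identical copies can be split between both places. Of the nuclear genes with identifiers from AT2G07660 to AT2G07840, which lie in or beside this copy, 5 were listed without Ni and 2 with Ni. Which of them lie inside the copy was not checked, so their values need not bear on reads shared with mitochondrial genes. Without Ni, 2 of the 5 passed the 2-fold ratio, both with higher values in TM, beside the 60.2% of all listed genes in either direction and 27.4% in this one. Of the others, AT2G07690 and AT2G07750 had lower values in TM, with log2 ratios of -0.66 and -0.93, and AT2G07760 a higher value, at 0.99. AT2G07715 (chromosome 2, 3410597 to 3413161) stood at 2.22 FPKM in NTM and 8.71 FPKM in TM, and AT2G07680 (3514745 to 3522491) at 9.39 and 23.3 FPKM. With Ni, AT2G07671 (3251665 to 3252113), a locus of 449 bp, was at 18.8 FPKM in NTM and listed at 0 in TM, while AT2G07760 (3584420 to 3586278) stood at 8.75 and 20.9 FPKM. Which of the 11 mitochondrial members have a copy there was not checked, so their values are uncertain to that extent.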

How the data were processed

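Poly(A) RNA of roots was sequenced on an Ion Proton in 12 libraries, grouped by the sample labels. The authors trimmed reads with cutadapt 1.8.1, used HISAT2 2.1.0 with default settings for alignment to *A. thaliana* (TAIR10 in the processing notes) and ran Cuffdiff of Cufflinks 2.2.1 with geometric normalization. The authors deposited FPKM as 1 value per group, headed TPM in the single-group files, and which of both applies was not settled. Values of the single-group files and of the comparison tables differed in 0 cases. The authors also deposited an unadjusted p-value and a log2 fold change from Cuffdiff for TM against NTM. Neither was used as a result, and 0 p-values lay above 0.05.

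All 8 value columns were mapped to groups. Log2 ratios used a pseudocount of 0.1 FPKM, understate the difference of low genes, and were compared with a threshold of 1. The fragments per 1000000 are FPKM multiplied by locus length in kb. Alternatives were adding 1 FPKM to each value, a minimum of 1 FPKM in each group, centring on the median of all listed genes, a threshold of 2 and leaving out genes at 0. A median was taken as moved when it changed by more than 1.5 times. Planned groupings by complex and nuclear lists by role, as well as restriction to protein-coding genes, were not run, since no gene names were used, and all 16 members are named instead of a selection. Members and lists were chosen with earlier results of these data known. Python 3.11.15, numpy 2.4.6, pandas 2.3.3 and matplotlib 3.10.9 were used.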

Additional observations from a re-analysis of the deposited data

Results flagged for a closer look

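For ATMG00660 the Ni values stood above control in NTM, with a log2 ratio of 1.22, and slightly below it in TM, at -0.18. These ratios have opposite signs and differ by 1.40. The ecotypes differed by more than this for 76 of the 1131 genes with 4 values, and for 25 of them the ratio was higher in NTM. Each group has 1 value, from 2 libraries for TM Ni, and the far shallower library belongs to the NTM Ni group. Whether the values without and with Ni were normalized together was not settled, and the difference was not tested.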

How the results depend on the processing

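The sign of a single ratio cannot depend on the pseudocount, and centring raises every ratio, so it could change only negative signs. Among the 14 single ratios of the genes above 0 in both ecotypes, no negative sign changed on centring. Centring adds 0.71 to every log2 ratio without Ni and 0.91 with Ni, because more genes were listed with lower values in TM. It left 6 organelle genes past the 2-fold ratio without Ni in place of 10, with 4 higher and 2 lower in TM in place of 4 and 6, while all listed genes shifted the same way, to 1986 higher and 507 lower. These 1986 are all the genes listed without Ni with a higher value in TM. The medians without Ni became 2.81 for the mitochondrial and -1.26 for the plastid genes, and the mitochondrial median with Ni became -1.20. After centring the ratio of ATMG00030 was -0.06. Raising the log2 threshold to 2 left 6 organelle genes without Ni. Among those with Ni, a minimum of 1 FPKM in each group kept 3 past the 2-fold ratio, as did leaving out genes at 0, a setting chosen after the values were seen. All other alternatives for counts, medians by organelle and the Ni ratios of ATMG00660 stayed within 1.5 times the values given. No median was formed for the plastid with Ni, where the only gene is listed at 0 in NTM. No paired analysis was possible because the tables hold 1 value per group, and libraries could not be left out in turn for the same reason.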
